A study of Mus musculus with 60 samples.

Results

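The hippocampus of mice at postnatal day (P) 15 was compared with that at P21, in control and in S119A mice together. The comparison takes the 8 libraries of those ages, out of 60 samples in the series, and was chosen by age and tissue alone. At each age there were 4 libraries, namely 2 of control and 2 of S119A hippocampus, numbered 1 and 2 within each age and genotype. RNA of whole hippocampus was made into full-length cDNA and read on a nanopore instrument, so that a read can show which exons a transcript carries. The values are reads per transcript, summed here per gene or divided within a gene.

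The S119A mice carry a knock-in allele of Pxn named paxillin-S119A, in which a serine of paxillin, an adaptor protein of integrin adhesions, is replaced by alanine, together with a floxed Pxn allele and a tamoxifen-inducible Cre under the Nestin promoter. Tamoxifen was injected before the ages sampled. The paper describes the S119A allele as held behind a floxed stop cassette, so that Cre turns it on. The paper also calls the change of both alleles in this line neuron-specific. Which cells of these hippocampi were changed was not measured here. GEO's labels call the controls WT, while the study's text describes controls as littermates with the floxed and the S119A allele, so the control genotype is given here only as control. The labels do not tie each library to a mouse, and p-values therefore measure the spread between these libraries, which may in part be technical.

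The days between P15 and P21 in the rodent hippocampus are known for the wrapping of axons by oligodendrocytes, which build myelin from lipids and a small set of abundant proteins, and for the last steps by which neurons lose growth-cone and cytoskeletal proteins of outgrowth. Over the same days synaptic proteins are known to change form by alternative splicing, in which an exon is kept or left out, or one exon is used in place of its neighbour. A change of form leaves the level of a gene free to stay where it was, which is why levels and forms are described separately. In RNA of a whole tissue, fewer cells of a type and less RNA per cell cannot be told apart.

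The 8 libraries held 3162777 to 5687908 reads. More genes differed by library number than by age. Numbers 1 and 2 differed in 5373 genes (40.8% of those tested), such as the transcription factor gene Deaf1 at 366 and 38.3 CPM (counts per 1e+06 reads) in P15 control libraries 1 and 2. Age was therefore compared within a number, and values below are given in the order library 1, library 2. P15 S119A library 2 was the shallowest and stood low in myelin genes. Choroid plexus genes, summed, were at 68.0 to 7983 CPM, and were high in both P15 libraries numbered 2 and in both P21 S119A libraries. Y-linked genes were read in 1 library at each age. The excitatory neuron genes Slc17a7, at 1145 to 2383 CPM, and Neurod6, at 441 to 768 CPM, were present in every library, whereas the striatal receptor gene Drd1 stayed at or under 2.69 CPM and the cortical gene Tbr1 at or under 1.86 CPM. Pxn itself was read at 20.99 and 15 CPM in P15 control, 8.92 and 9.19 in P15 S119A, 18.4 and 6.98 in P21 control and 15.6 and 9.11 CPM in P21 S119A libraries. Reads of all Pxn alleles enter 1 sum, so this level is no check of the genotype labels.

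Of 13171 genes tested, 190 were higher at P21 (1.44%) and 143 lower (1.09%), in edgeR's quasi-likelihood test with genotype and library number as terms and an adjusted p under 0.05. Of these 333 genes, 332 moved the same way in all 4 pairs of libraries of 1 genotype and number, and 333 had the same sign in both genotypes, estimated as separate contrasts of 1 fit over the 8 libraries. In 90 of the higher and 56 of the lower genes the log2 change was over 1 in size. With another scaling, by median-ratio size factors, the split was 142 higher and 172 lower, so the balance of rises and falls depends on the scaling. Without the term for library number no gene passed, and 979 had an unadjusted p under 0.05. Leaving out 1 library at a time gave 80 to 531 genes, a change of over 1.5 times for each of the 8 libraries. The 80 genes called without P15 S119A library 2 were all among the 333.

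Myelin genes rose. Of 25 tested genes of myelin and oligodendrocytes, 19 rose, beside 1.44% of all genes tested, and 0 fell. The median log2 change of the list was 1.78, beside 0.03 over all genes. Mal (chromosome 2, positions 127633226 to 127656695 in the GRCm38 build), which encodes a membrane protein of compact myelin, was at 53.1 and 56.8 CPM in P15 control and 36.8 and 7.66 CPM in P15 S119A libraries. At P21 it was at 410.2 and 359 CPM in control and 299 and 392 CPM in S119A libraries. Every P21 library was above every P15 library, and P15 S119A library 2 was far below the other 3. The rise was 10.1-fold (log2 change 3.34 ± 0.34 SE, adjusted p = 0.000467).

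Ermn, whose product ermin is a cytoskeletal protein of mature oligodendrocytes, went from 15.1, 14.0, 14.4 and 2.45 CPM to 97.4, 129, 80.9 and 125 CPM, in the order control 1 and 2, S119A 1 and 2 that is kept from here on. Its log2 change of 3.20 ± 0.32 SE was close to that of Mal. Opalin, a transmembrane glycoprotein of oligodendrocytes, rose by 2.48 on the log2 scale and had no read in P15 S119A library 2, so that its fold rests on low counts at P15. Hapln2, a link protein of the nodes of Ranvier, rose by 2.11 from 1.44, 1.42, 0.949 and 0.918 CPM at P15.

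Among the abundant myelin proteins, Mog, a glycoprotein of the outer myelin surface, was at 239, 364, 193 and 43.5 CPM at P15 and at 720, 907, 626 and 833 CPM at P21. The ages did not overlap, and the log2 change was 2.01 ± 0.37 SE (adjusted p = 0.0187). Mobp, a basic protein of compact myelin, rose by 1.85, Mag, which faces the axon, by 1.45, and Cnp, an enzyme of non-compact myelin, by 1.09 on the log2 scale. Mobp passed in 6 of 8 fits with 1 library left out and Mog in 7. Mbp, the basic protein that holds the inner membrane faces together, did not pass: its log2 change was 0.55 (adjusted p = 0.226), with 451, 400.0, 416 and 170 CPM at P15 and 495, 571, 377 and 616 CPM at P21. Unlike the genes above, Mbp had a P21 library, S119A library 1, that lay below 3 of the P15 libraries.

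Trf, the iron carrier transferrin that oligodendrocytes make, was at 208, 244, 192 and 98.3 CPM at P15 and at 883, 953, 801 and 1043 CPM at P21, a 5.05-fold rise (adjusted p = 0.000272). Fa2h, the hydroxylase of myelin sphingolipids, rose from 75.3, 23.1, 57.5 and 11.02 CPM to 253, 74.4, 254 and 74.5 CPM. Libraries numbered 2 were lower than those numbered 1 at both ages, and within each number the ages were far apart. The log2 change of Fa2h was 2.03 ± 0.17 SE (adjusted p = 0.000183). Ugt8a, which makes galactosylceramide, rose by 1.73, and Aspa, which frees acetate from N-acetylaspartate, by 2.12.

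Of the transcription factors of the lineage, 2 of the 5 named here rose. Myrf, the transcription factor of myelin genes, rose by 1.32 and Nkx6-2, a homeobox factor of maturing oligodendrocytes, by 1.78 on the log2 scale. Sox10 changed by 0.12 (adjusted p = 0.697), Olig1 by 0.03 and Olig2 by -0.29, and none of the 3 passed. Of 13 tested genes of oligodendrocyte precursors and differentiating cells, 0 rose and 1 fell, beside 1.09% of all genes tested that fell (median log2 change of the list -0.06). The gene that fell, by 0.91 and in 3 of 8 fits with a library left out, was C1ql1, a secreted C1q-like protein, while Pdgfra, the growth factor receptor that marks precursors, was at a mean of 18.6 CPM at P15 and 17.9 CPM at P21. The count of risen myelin genes was 13 to 19 when any 1 library was left out, 20 in libraries numbered 1 alone and 20 in those numbered 2 alone.

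**Figure D1:**
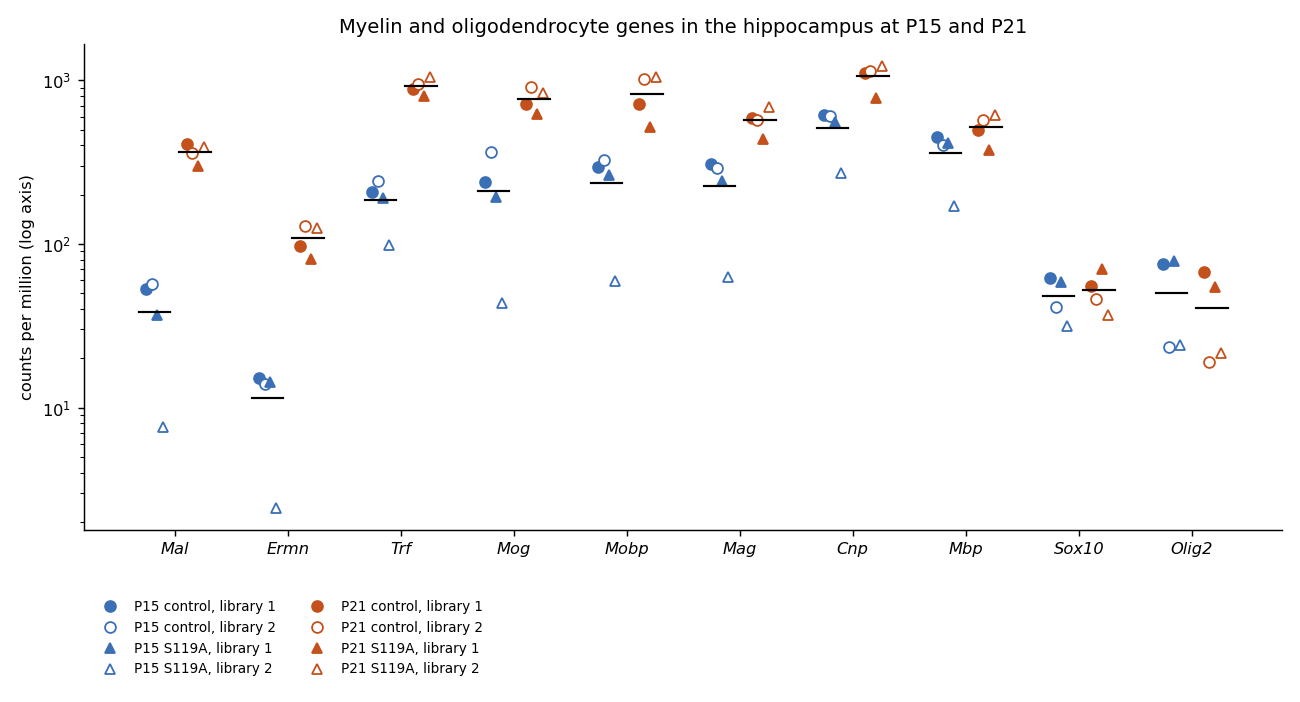
Reads in CPM, on a log axis, of 10 myelin and oligodendrocyte genes in the 4 P15 (blue) and 4 P21 (orange) hippocampus libraries, with circles for control, triangles for S119A, filled marks for library 1, open marks for library 2 and a black bar for the mean of 4. Mal, Ermn and Trf at P21 lie above all P15 libraries, Sox10 and Olig2 overlap, and P15 S119A library 2 is the lowest P15 library in 9 of the 10 genes.

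Other genes stood among the 15 with the largest rises. Cldn11, the tight-junction protein of myelin, rose by 2.04, Gsn, the actin-severing gelsolin, by 2.04, Lpar1, a lysophosphatidic acid receptor, by 1.97 and Tspan2, a tetraspanin of oligodendrocytes, by 1.89 on the log2 scale. Tnfaip6, a hyaluronan-binding protein, rose by 1.85 from 5.56, 11.96, 4.37 and 3.37 CPM to 24.2, 25.3, 17.1 and 22.1 CPM. Ccl21b, a chemokine of a gene cluster with near-identical copies, was read almost only in libraries numbered 1, at 10.4 and 8.92 CPM at P15 and 43.9 and 48.0 CPM at P21, and its assignment among the copies is uncertain.

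Haemoglobin genes rose as well. Hbb-bt was at 26.9, 96.7, 22.8 and 204 CPM at P15 and at 126, 590.3, 89.2 and 342 CPM at P21, and Hbb-bs rose by 1.58 on the log2 scale. These 2 beta-globin genes are near-identical, so reads may be split between them. Alas2, an enzyme of haem synthesis in red cells, rose by 0.87, passing in 2 of 8 fits with a library left out. Of 5 tested red blood cell genes 3 rose, beside 1.44% of all genes tested, with a median of 0.87 for the list. The red blood cell genes, summed, ranged from 282 to 1325 CPM at P15 and from 672 to 3322 CPM at P21, with libraries numbered 2 above those numbered 1 in each group, and the part of blood in other results was not tested.

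Genes of immature neurons fell. The median log2 change of 24 tested genes of immature neurons and axon growth was -0.63, beside 0.03 over all genes. Of the 24 genes 11 fell, beside 1.09% of all genes tested, and 0 rose. With 1 library left out 6 to 12 fell, with 6 without P15 S119A library 2 and 7 without P15 control library 1, P15 S119A library 1 or P21 control library 1. Marcksl1, an actin-binding protein of growing processes, was at 1314 and 392 CPM in P15 control, 1379 and 434 CPM in P15 S119A, 734 and 147 CPM in P21 control and 799 and 132 CPM in P21 S119A libraries. The ages overlapped across numbers and were apart within each number, and the log2 change was -1.19 ± 0.15 SE (adjusted p = 0.00258). Igfbpl1, an insulin-like growth factor binding protein of newborn neurons, fell by 1.3 at low counts and passed in 2 of 8 such fits.

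Cytoskeletal and growth-cone proteins made up most of the rest. Dpysl3, a collapsin response mediator, went from 160, 64.1, 162 and 96.8 CPM to 60.2, 55.8, 57.8 and 49.99 CPM, with every P21 library below every P15 library. Its log2 change was -1.04, that of Crmp1, of the same family, -0.78, and that of Dpysl5 -0.90. Gap43, the growth-associated protein of axon tips, fell by 0.80, Tubb3, the neuronal beta-tubulin, by 0.70, Stmn2, a microtubule regulator of growth cones, by 0.65, Nrep by 0.94 and Cd24a, a surface glycoprotein of young neurons, by 1.00 on the log2 scale. Dcx, the doublecortin of migrating neurons, was lower in 3 of 4 pairs and did not pass (log2 change -0.44, adjusted p = 0.425), at a mean of 8.66 and 6.17 CPM. Rac3, a small GTPase of developing neurons outside the list, fell by 1.5 on the log2 scale from 160, 103, 174 and 140.0 CPM to 70.7, 43.6, 65.3 and 30.0 CPM.

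The largest fall among called genes with a mean of at least 10 CPM was that of Mkrn3 (chromosome 7, positions 62417593 to 62420153), an imprinted gene for a zinc-finger ubiquitin ligase known as a brake on puberty. It was at 64.0, 40.8, 67.4 and 50.8 CPM at P15 and at 12.6, 7.27, 13.8 and 10.9 CPM at P21. All P21 libraries lay below all P15 libraries, in both numbers and both genotypes, and the fall was 4.99-fold (log2 change -2.32 ± 0.16 SE, adjusted p = 4.18e-05). Its log2 change was -2.39 in control and -2.26 in S119A mice.

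Ndn, which encodes necdin, a growth suppressor of neurons, lies near Mkrn3 (chromosome 7, positions 62348277 to 62349928) and is also imprinted. It fell from 902, 1275, 982 and 1662 CPM to 428, 606, 422 and 554 CPM (log2 change -1.24 ± 0.12 SE, adjusted p = 0.000324). Snrpn, farther along the same imprinted region, fell by 0.53 and did not pass in any fit with a library left out. Nnat, or neuronatin, an imprinted gene of chromosome 2 that is also in the immature-neuron list, fell from 3047, 6486, 3375 and 5461 CPM to 1595, 2818, 1470 and 2161 CPM, which is 2.26-fold. Of 13 tested imprinted and growth genes, a list without Mkrn3, Ndn, Snrpn and Nnat fell, beside 1.09% of all genes tested, and 0 rose. The median log2 change of the list was -0.36, and Peg3, at 0.27, Meg3, at 0.02, and Igf2, at -0.49, did not pass.

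**Figure D2:**
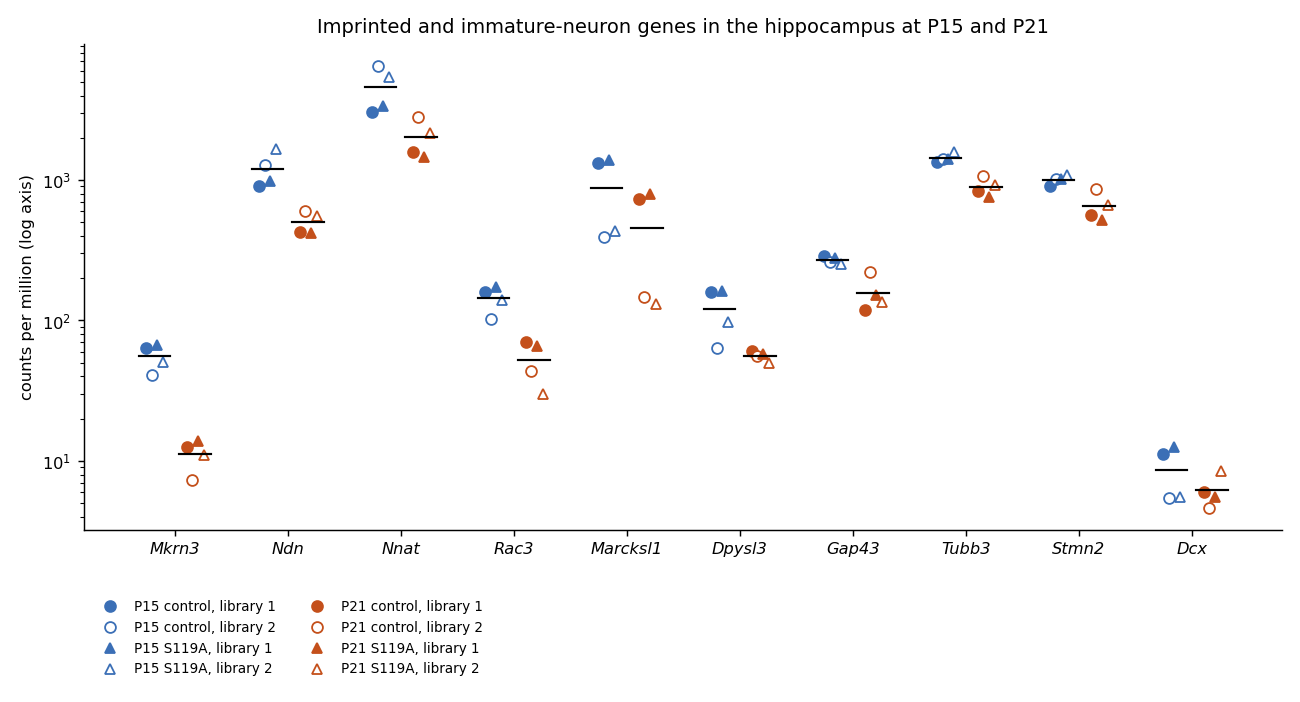
Reads in CPM, on a log axis, of 3 imprinted genes, Rac3 and 6 genes of immature neurons in the same 8 libraries, with marks as in the myelin plot and a black bar for the mean of 4. Mkrn3, Ndn and Rac3 at P21 lie below all P15 libraries, while Marcksl1 separates by age only within a library number and Dcx overlaps.

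Further falls among the 15 largest were of mixed kinds. Nts, the peptide neurotensin, fell by 1.55 and Deaf1 by 1.5 on the log2 scale. Nts was far lower in P15 S119A library 2, at 10.1 CPM, than in the other P15 libraries, at 39.3 to 65.3 CPM, and passed in 3 of 8 fits with a library left out. Col1a2 fell by 1.27 and Col1a1 by 1.15, both chains of fibrillar collagen. Of 16 tested genes of meninges and fibrillar collagens 2 fell, beside 1.09% of all genes tested (median of the list -0.39). Cldn5, the tight-junction protein of brain endothelium, fell by 1.23, the only one of 13 tested blood vessel genes past the threshold, and passed in 2 of 8 fits with a library left out. Samd14, Dynlt1b, Lsm11, Fbxw9 and the noncoding RNA Bc1 fell by 1.25, 1.2, 1.19, 1.18 and 1.15 in that order. With a library left out, Bc1 passed in 1 of 8 fits, Col1a1 in 2, Dynlt1b in 3, Samd14 in 4 and Lsm11 in 5.

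Few synaptic and channel genes passed the test as gene sums, where 1.44% of all genes tested rose and 1.09% fell. Of 21 tested glutamate receptor genes only Grin2a rose, the NMDA receptor subunit known to increase over postnatal weeks, from 289, 414, 316 and 349 CPM to 428, 590, 436 and 649 CPM. All 4 pairs rose, and the log2 change was 0.60 ± 0.11 SE (adjusted p = 0.0184), passing in 4 of 8 fits with a library left out. Grin2b, the subunit of younger synapses, was at 0.19 and Grin1, the obligatory subunit, at 0.00 (adjusted p = 0.994). None of 16 genes of GABA receptors and chloride transporters passed (median 0.28), including Slc12a5, the chloride extruder of mature neurons, at 0.33.

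Of 19 voltage-gated potassium channel genes 2 rose, beside 1.44% of all genes tested. Both encode beta subunits, Kcnab1 at 0.89 and Kcnab2 at 0.75. The median of the list was 0.42, beside 0.03 over all genes. Of the 19 estimates 17 were positive, a lean not particular to channels. It was 14 of 16 for GABA receptors and chloride transporters and 26 of 37 for splicing factors, against 7 of 18 for astrocyte genes. With a library left out 0 to 3 genes of the list rose, and Kcnab1 passed in 2 and Kcnab2 in 3 of 8 such fits, while 9 of 19 rose in libraries numbered 1 alone. The potassium channel genes, summed, were at 946 to 1045 CPM at P15 and 1280 to 1647 CPM at P21, with no overlap. Kcnd2 had a larger estimate, 2.17, and did not pass (adjusted p = 0.208). Its P15 libraries numbered 2 held 0.608 and 0.918 CPM against 115.3 and 68.1 CPM in those numbered 1. Of 8 sodium channel genes 0 passed (median 0.43, with 7 positive estimates). Camk2n1, the inhibitor of CaM kinase II, rose by 0.59, alone among 19 CaM kinase and plasticity kinase genes and in 4 of 8 fits with a library left out, and Camk2a was at 0.54 (adjusted p = 0.119).

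In inhibitory neurons, Gad1, which makes GABA, rose from 140, 91.8, 133 and 92.2 CPM to 222, 169, 196 and 191 CPM with no overlap between ages (log2 change 0.79 ± 0.12 SE, adjusted p = 0.00818), and Pvalb, the calcium buffer of fast-spiking cells, rose by 0.95. Of 15 tested interneuron genes these 2 rose, beside 1.44% of all genes tested. The other 13 did not pass, Sst and Gad2 among them, at 0.01 and 0.25. Around these cells, Hapln4, a link protein of perineuronal nets, rose by 0.89 and Adamts4, a matrix protease also made by oligodendrocytes, by 1.19. They were the 2 of 10 tested matrix genes that rose, beside the same 1.44% of all genes. With a library left out, Pvalb passed in 1 of 8 fits, Adamts4 in 3, Hapln4 in 6 and Gad1 in 8.

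The remaining lists had few or no calls, while over all genes tested 1.44% rose and 1.09% fell. Ctss, a lysosomal protease, was the only microglial gene of 13 to rise (0.60), Tm7sf2 the only cholesterol synthesis gene of 23 to fall (-0.69), and Ier2 and Junb the only immediate early genes of 19 to fall (-0.97 and -0.64). With a library left out, Tm7sf2 passed in 1 of 8 fits, Ier2 and Junb in 2 each and Ctss in 3. No gene passed among 29 of presynaptic release (median 0.26), 24 of postsynaptic scaffolds (0.22), 21 of cell cycle and progenitors (0.11), 18 of astrocytes (-0.03), 24 of oxidative phosphorylation (-0.04), 10 of choroid plexus (-0.53), 37 splicing factors (0.14) and 27 of integrin adhesion and paxillin partners (0.15). Pxn was at -0.10 (adjusted p = 0.871). Among splicing factors Nova1 was at -0.12, Nova2 at -0.04, Rbfox2 at 0.28 and U2af2 at 0.11, and Rbfox1, with a log2 change of 0.85, had the lowest adjusted p of the list, 0.0628.

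**Figure D3:**
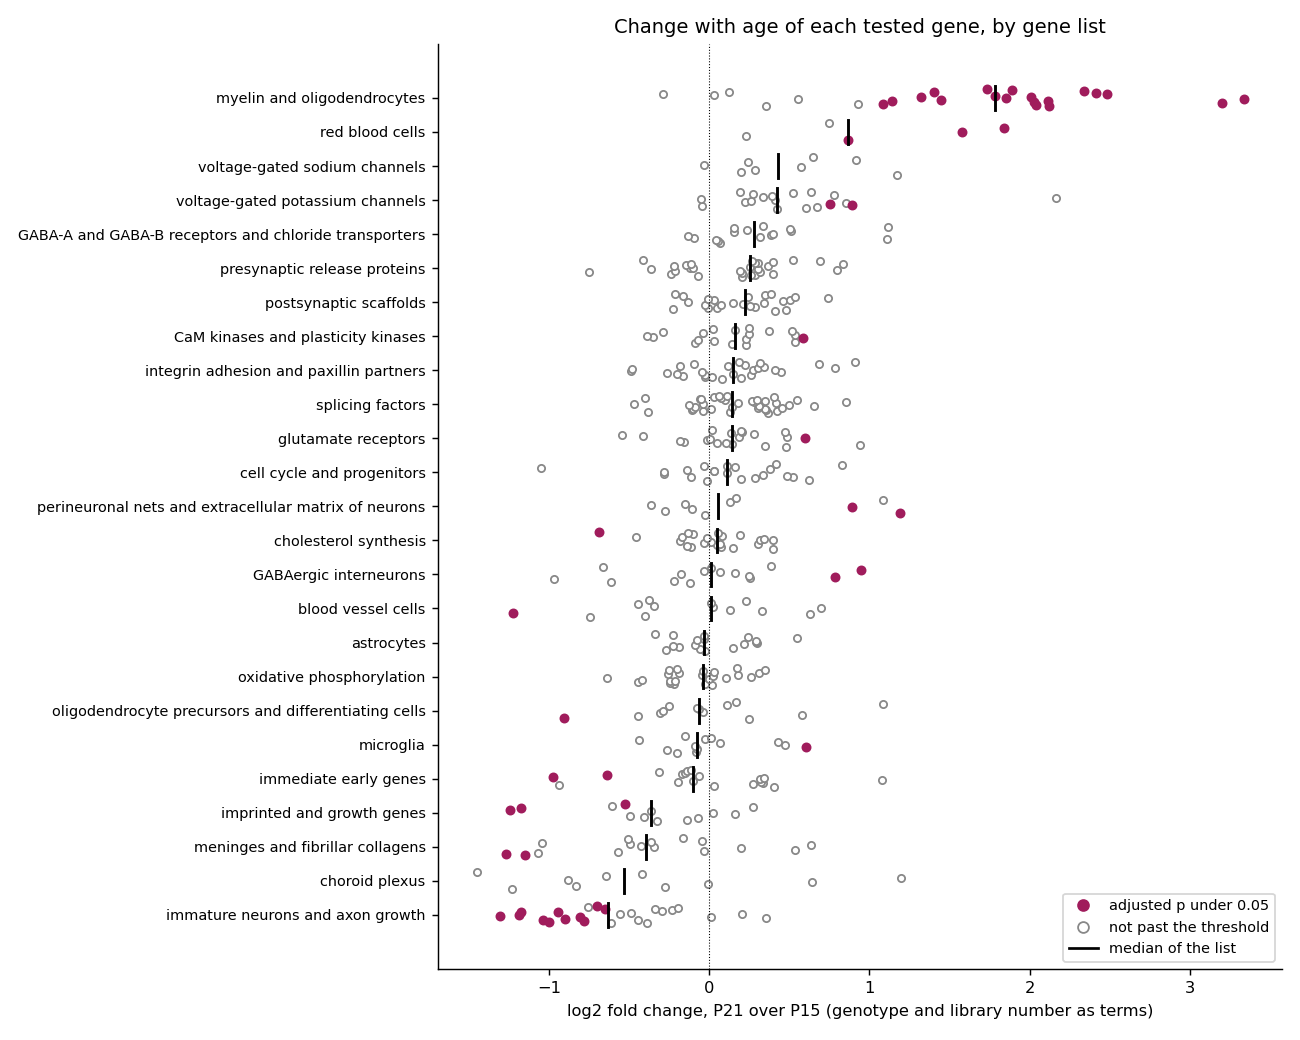
Log2 fold change of P21 over P15 for each tested gene of 25 gene lists, ordered by their median (black bar), with filled marks for genes past an adjusted p of 0.05. The myelin list has 19 filled marks to the right of 0 and the immature-neuron list 11 to the left, while 10 lists have no filled mark.

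The genotypes were then set side by side. In a fit over all 8 libraries with a contrast for each genotype, 11 genes passed for control (0.0835%) and 39 for S119A (0.296%), both with a spread estimated from all libraries. For the difference itself, the age by genotype term of edgeR, 0 of 13171 genes passed and 384 had an unadjusted p under 0.05, while DESeq2 called 1. The counts in either genotype therefore do not show that S119A mice changed more. The median of the myelin list was 1.43 in control and 2.19 in S119A mice, and P15 S119A library 2, the lowest in these genes, enters only the latter. Without that library the median over both genotypes was 1.36.

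The 5 genes with the smallest interaction p were Kcnj13, Enpp2, Cldn2, Ttr and Pcolce. Ttr, the thyroxine carrier and main product of choroid plexus, was at 126 and 7795 CPM in P15 control and 229 and 5077 in P15 S119A libraries, then at 35.8 and 68.3 in P21 control and 1558 and 3134 CPM in P21 S119A libraries. Ttr thus followed neither age nor genotype at P15, and was high in both S119A libraries at P21. Kcnj13, a potassium channel of choroid epithelium, was at 2.51, 21.5, 4.94 and 15 CPM at P15 and at 0, 0.872, 18.1 and 24.1 CPM at P21. The adjusted p of each of the 5 was 1.

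Forms within genes were measured next. Of 12218 transcripts tested as a share of their gene, 533 changed (4.36%), 269 upwards and 264 downwards, in 347 of 4486 genes. Of the 347 genes 25 also changed as gene sums, beside 333 of all 13171 genes tested. Without the term for library number no share passed, with 1201 at an unadjusted p under 0.05, and diffSpliceDGE, which uses the same counts in another model, called 52. Exons, which pool the reads of several transcripts, were called more often: of 584 exon events with both forms annotated, 97 changed (16.6%), 50 upwards and 47 downwards, in 84 of 515 genes. Without the term for library number 47 passed. Of the 97 events 76 had no overlap between the ages, beside 19.2% of all events tested. Of the 84 genes 3 also changed as gene sums, a share near that of all genes tested.

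Of the 97 events 86 were cassette exons, kept or left out, of which 46 were used more at P21 and 40 less, and 11 were pairs of exons that replace each other. The length was a multiple of 3, which keeps the reading frame, in 50 of the 86 and in 350 of the 546 cassette exons tested. The share moved by a median of 10.0 percentage points among the called events and 3.52 among all tested. Of 33 genes listed for known exons, 15 had a tested event and 8 had at least 1 past the threshold. Over all genes with a tested event it was 84 of 515. The 33 genes were listed with earlier results of these data known, so their count is no independent support. The sequences of the exons on which the account turns are printed here, 5′ to 3′ on the strand of the gene, cut from GENCODE M21 transcripts of the GRCm38 build, and all lie in coding sequence.

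Snap25 is shown because its exons 5a and 5b, of 118 bases each, are used in exclusion and mark young and mature synapses. The capitals are the 31 positions at which they differ.
Snap25 exon 5a, chr2:136769743-136769860, plus strand: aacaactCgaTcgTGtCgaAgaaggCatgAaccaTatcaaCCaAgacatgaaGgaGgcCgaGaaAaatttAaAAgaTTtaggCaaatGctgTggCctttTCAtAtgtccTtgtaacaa
Snap25 exon 5b, chr2:136770057-136770174, plus strand: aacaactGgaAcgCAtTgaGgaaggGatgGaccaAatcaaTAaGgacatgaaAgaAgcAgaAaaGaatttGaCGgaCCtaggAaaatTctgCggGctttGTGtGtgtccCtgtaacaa

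The flop and flip exons of Gria1, an AMPA receptor subunit, replace each other, have 115 bases each and differ at the 36 positions in capitals.
Gria1 flop exon, chr11:57309769-57309883, plus strand: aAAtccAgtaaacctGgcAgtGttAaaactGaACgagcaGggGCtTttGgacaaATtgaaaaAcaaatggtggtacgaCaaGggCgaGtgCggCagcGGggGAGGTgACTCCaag
Gria1 flip exon, chr11:57310608-57310722, plus strand: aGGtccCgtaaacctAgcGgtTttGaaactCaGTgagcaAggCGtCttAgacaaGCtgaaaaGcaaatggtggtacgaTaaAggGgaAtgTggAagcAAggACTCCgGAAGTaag

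The next 3 are cassette exons, in capitals, with 20 bases of the joined exons on either side. They are shown because the Dbn1 exon sets the form of a protein of dendritic spines, and the Ndrg4 and App exons moved in opposite directions.
Dbn1 138-nt exon, chr13:55476636-55476773, minus strand: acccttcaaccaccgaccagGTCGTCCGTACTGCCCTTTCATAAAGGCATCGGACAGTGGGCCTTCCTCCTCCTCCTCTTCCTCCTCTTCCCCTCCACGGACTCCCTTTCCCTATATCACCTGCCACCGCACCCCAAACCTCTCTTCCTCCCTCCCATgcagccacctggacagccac
Ndrg4 39-nt exon, chr8:95712325-95712363, plus strand: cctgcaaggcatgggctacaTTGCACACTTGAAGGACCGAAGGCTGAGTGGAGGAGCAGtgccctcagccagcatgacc
App 57-nt exon, chr16:85040251-85040307, minus strand: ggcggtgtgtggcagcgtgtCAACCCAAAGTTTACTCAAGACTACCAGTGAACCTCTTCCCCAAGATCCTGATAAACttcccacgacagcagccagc

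Snap25, the membrane SNARE of synaptic vesicle release, moved towards exon 5b. Of reads with exon 5a or 5b, 83.7% and 83.2% carried 5b in P15 control and 82.1% and 79.5% in P15 S119A libraries. At P21 the shares were 92.8% and 92.2% in control and 87.0% and 91.9% in S119A libraries. All P21 libraries were above all P15 libraries, and P21 S119A library 1 was the lowest of P21. Each share rested on 3580 to 18293 reads, which leaves an exact binomial 95% interval of 86.4% to 87.5% in P21 S119A library 1 for counting error alone. The mean went from 82.1% ± 1.88 (SD, n = 4) to 91.0% ± 2.7 (SD, n = 4).

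The exact 2-sided permutation test of the Snap25 share gave p = 0.0286, the smallest that 70 divisions of the 8 libraries allow. With ages exchanged only within the 4 pairs of libraries the exact p was 0.125, the smallest that such pairing allows. In the fit over all exons the odds of 5a fell by 1.16 on the log2 scale (adjusted p = 0.000618), and the call held in 13 of 13 other fits. The gene sum of Snap25 was 3081, 1647, 2951 and 1111 CPM at P15 and 3828, 3909, 3146 and 3324 CPM at P21, a log2 change of 0.80 that missed the threshold (adjusted p = 0.06).

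Among glutamate receptors, Gria1 moved towards flop. Its flop share was 53.4%, 54.1%, 61.1% and 51.7% at P15 and 63.5%, 72.2%, 72.3% and 63.4% at P21. No P21 library overlapped P15, and the mean rose by 12.8 points (adjusted p = 0.0198). It missed the threshold without the term for library number (adjusted p = 0.0537) and passed in 6 of 8 fits with a library left out. The exon pairs of Gria2, at 13.0% and 14.2% for the exon at lower coordinates, and Gria3, at 19.7% and 26.5%, did not pass, nor did the 63-nt exon of Grin1, at 10.3% and 13.5% (adjusted p = 0.539).

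In dendritic spines, the 138-nt exon of Dbn1, which makes the adult form of the actin-binding protein drebrin, went from 67.4%, 63.3%, 67.8% and 65.0% to 80.8%, 81.4%, 77.6% and 78.1% (adjusted p = 0.000711). Ndrg4, a protein of the N-myc downstream-regulated family, had the lowest adjusted p of all exon events, 9.06e-05. Its 39-nt exon rose from 75.9%, 79.7%, 76.0% and 78.2% to 88.0%, 88.5%, 85.9% and 88.4%, on 5075 to 12458 reads per library.

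Some exons were used less at P21. Clta, the clathrin light chain a, used its 54-nt exon less, from 41.1%, 42.4%, 44.3% and 39.5% to 32.7%, 35.3%, 31.8% and 26.5%, passing in 5 of 8 fits with a library left out. Where that exon and the 36-nt exon were used in exclusion the 54-nt share fell by 18.5 points (adjusted p = 0.00599). App, the amyloid precursor protein, used its 57-nt exon in 58.3%, 54.9%, 57.05% and 61.3% of the compared reads at P15. At P21 the shares were 42.7%, 37.8%, 45.03% and 40.4%. The compared reads were only 37 to 156 per library, a mean of 110.1 beside 2465.5 of all App forms. The main form, NM_007471.3, was not among the compared forms. Its mean share of App reads was 84.99% at P15 and 85.83% at P21, and did not pass (adjusted p = 0.896). Aplp2, a paralog of App, used a 168-nt exon in a mean of 47.0% and then 32.9% (adjusted p = 0.00205).

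Dnm1, the dynamin that cuts vesicles from the membrane, shows how much library number weighs. The share of the 139-nt exon at the lower coordinates was 47.4% and 6.75% in P15 control, 48.2% and 5.91% in P15 S119A, 57.1% and 20.4% in P21 control and 67.4% and 12.6% in P21 S119A libraries. Within each number P21 was above P15, and across numbers the ages overlapped in part. The adjusted p was 0.0076 with the term for library number and 0.677 without it.

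Forms of myelin genes changed beside their levels. The 33-nt exon of Mbp was used in 38.2%, 44.8%, 35.1% and 13.1% of the compared reads at P15. At P21 the shares were 67.8%, 68.7%, 74.0% and 68.0%. This was the largest change among called exons that moved alike in all pairs, at 36.8 points (adjusted p = 0.000711). It was measured against form NM_010777.3 only, on a mean of 380.9 reads beside 2016.5 of all Mbp forms. Against a 123-nt exon used in its place, on a mean of 999.8 reads, the mean share went from 12.1% to 29.45% (adjusted p = 0.00179). The 78-nt exon rose from a mean of 19.9% to 35.9%, though the level of Mbp itself did not pass. P15 S119A library 2 was lowest in both exons, and the calls held in 13 of 13 other fits. Septin4, a septin of myelin, used a 297-nt exon in 56.6% and then 84.2% of reads against one set of forms without it, and in 68.6% and then 85.6% against another. The 45-nt exon of Nfasc, the neurofascin of nodes and axon initial segments, fell from 87.3% to 73.1%, passing in 4 of 8 fits with a library left out.

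**Figure D4:**
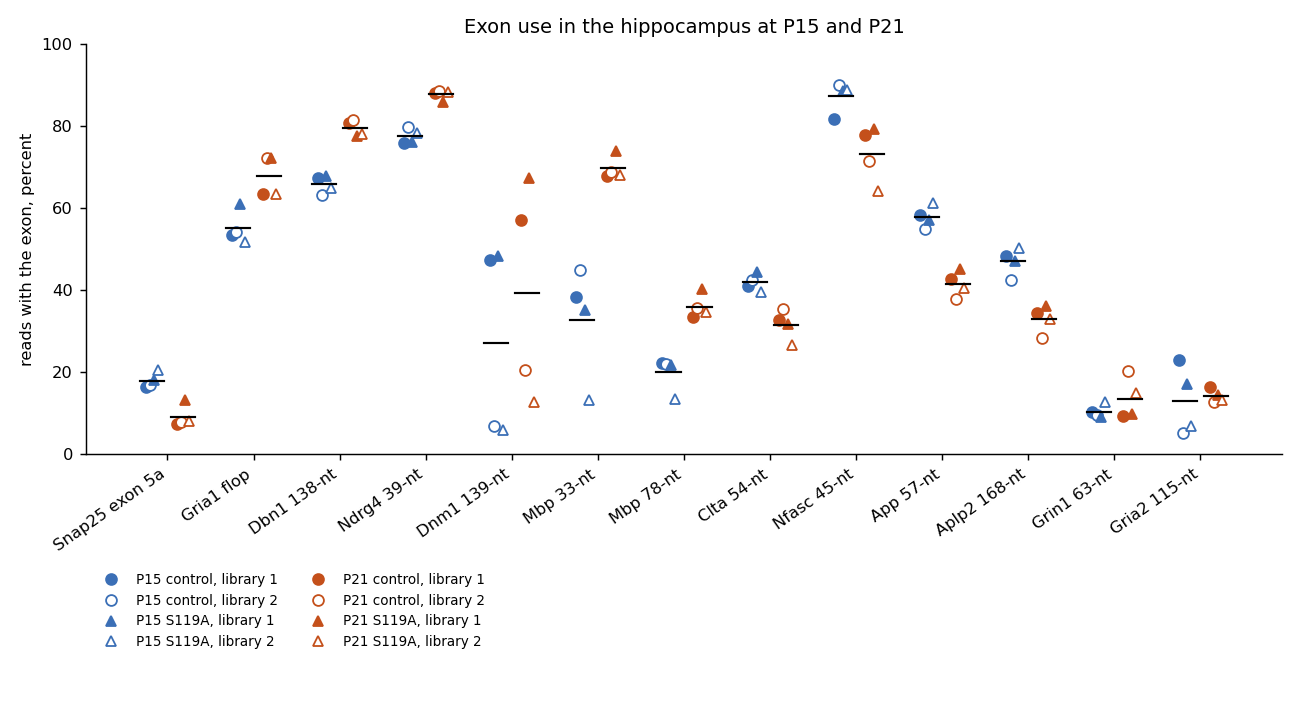
Percent of reads that use an exon, out of reads with either form, for 13 exon events in the 8 libraries, with marks as in the myelin plot and a black bar for the mean of 4. The ages do not overlap for Snap25 exon 5a (1 minus the share of 5b), Gria1 flop, Dbn1 and Ndrg4, whereas Dnm1 splits by library number and Grin1 and Gria2 overlap.

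The other exons with the largest changes were in genes of several kinds. Smox, a polyamine oxidase, replaced a 760-nt by a 161-nt exon, with 37.2% and then 5.12% for the longer. Mpzl1 rose by 22.1, Clk4, a kinase of splicing factors, by 17.1, Nbr1, an autophagy receptor, by 16.8 and Tmem25 by 16.8 points. Dcun1d2 fell by 20.9, Dync1i2, a dynein chain, by 20.7, Armcx1 by 19.3, Fam219b by 17.3 and Med15, a mediator subunit, by 16.04 points. With a library left out, Fam219b passed in 1 of 8 fits and Clk4 and Tmem25 in 4 each. Of factors that themselves act on RNA, U2af1 used the lower-coordinate one of a pair of 67-nt exons in 68.4% and then 55.0%, Mbnl2 used a 36-nt exon in 81.7% and then 71.6%, and Clk1 a 91-nt exon in 87.7% and then 97.2%. These 3, and the exons of Dbn1, Ndrg4 and Aplp2, were chosen after their values were seen.

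Among whole transcripts, the largest change was in Aspa, whose form NM_023113.5 went from 92.5%, 71.4%, 51.6% and 7.69% to 95.2%, 97.6%, 100% and 96.9% of the gene. The P15 values were spread over nearly the whole scale on few reads, a mean of 79.2 per library over both ages. Steadier changes were those of Ccp110, a centriole protein, from 86.9%, 88.9%, 81.6% and 91.8% to 60.8%, 58.9%, 57.3% and 55.7%, and of Bin1, a membrane-bending protein, whose form NM_009668.2 fell from a mean of 69.6% to 50.3%. In the mean of each age, Slain1, Rapgef2, Grb14, Dusp11, Chpf2 and an unnamed noncoding gene fell by 22.6 to 29.1 points. Slc29a4, Epb41l3, Clk4, Ip6k2, Dbndd2, Mpzl1 and Daam2 rose by 22.3 to 26.0 points. Some of these depended on library number. Grb14 went from 91.7%, 50%, 90.1% and 69.6% to 86.7%, 13.0%, 86.3% and 14.9%, mostly a fall in libraries numbered 2. Slc29a4 went from 26.4%, 48.4%, 26.2% and 59.0% to 43.7%, 85.7%, 42.0% and 92.7%. Slain1 had only 22 to 33 reads in each library numbered 2.

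Of the genes the study follows, Ank3, the ankyrin of the axon initial segment, lost form XM_006513129.3, from 13.7% to 6.28% (adjusted p = 0.00251), and Ank2 gained NM_178655.3, from 7.14% to 14.3% (adjusted p = 0.00756). Gabbr1, a GABA-B receptor subunit, moved from NM_019439.3, at 11.8% and then 7.38%, towards XM_030249908.1 (adjusted p = 0.0285 for both). No form of Grin1, Grm5 or U2af2 passed, and for the 102-nt exon of Pxn the share was 18.97%, 20.8%, 21.3% and 3.33% at P15 and 33.3%, 29.2%, 9.68% and 11.4% at P21 (adjusted p = 0.524). Mapt, the axonal tau protein, lost NM_001285456.1, from 12.8% to 3.93% (adjusted p = 0.0259).

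For the difference of age effects between genotypes, 0 of 12218 shares passed, with 337 at an unadjusted p under 0.05, and 0 of 584 exon events, with 13. The 5 smallest p-values belonged to forms of Mast4, Rasal2, Enpp2 and, with 2 forms, Car12, each with an adjusted p of 1.00. Enpp2 is also among the genes with the smallest interaction p as gene sums, beside the choroid plexus genes. An effect of S119A on these changes was not detected in these fits, and none of these counts shows that it is absent.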

How the data were processed

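Reads per transcript were deposited as whole counts, which the authors made by nanopore sequencing of full-length cDNA, alignment with minimap2 to mm10 and transcript assignment with IsoQuant against RefSeq. The authors' TPM table, of cortical cultures, was not used here. Members and gene lists were chosen with earlier results of these data known. Of 122459 transcripts 119253 matched a RefSeq gene, with 98.2% of reads, and the rest kept their own feature name. Gene sums were scaled by TMM and tested with edgeR 4.0.16 (quasi-likelihood F test, filterByExpr, Benjamini-Hochberg, adjusted p under 0.05). Shares of transcripts, and of exons from GENCODE M21 (GRCm38), were tested as form against other reads, for a mean of at least 50 reads and an overall share of 5% to 95%. Genotype and library number were terms throughout, since deviations of same-numbered libraries correlated at 0.78 to 0.87 over 6 pairs of groups, a pairing seen in the data and not stated in the labels. No replicate pair agreed within sampling noise. On simulated counts of 13001 genes, 82.0% of genes changed by a log2 of 1 and 99.0% of those changed by 2 were called for the age comparison. The 18 false calls stood beside 82 and 99 recovered genes, a share above the threshold of 0.05. The simulation drew changed genes from those with more reads and let library number act alike at both ages. Recovery in the real libraries may therefore be lower. Named were genes the study follows, up to 3 risen and 3 fallen members of each list beside its best known members, the 15 largest rises and falls with a mean of at least 10 CPM that moved alike in all 4 pairs, leaving out 10 unnamed risen and 7 unnamed fallen genes, the 15 largest changes of transcripts and of exons, and the 5 smallest interaction p-values. Alternatives were other scaling, DESeq2, other filters, diffSpliceDGE, single numbers, all 12 hippocampus libraries and each library left out. Counting strand was not given in the sources used here, so overlapping antisense genes cannot be told apart. Intervals cover counting error only.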

Additional observations from a re-analysis of the deposited data

Results flagged for a closer look

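Each named gene and exon was examined for a library standing apart from the other 3 of its age, and 9 of 176 such groups of 4 had one by Dixon's 95% limit on the gap over the range. Chance gives about 1 in 20. P15 S119A library 2 was low for Ermn (2.45 against 14.0 to 15.1 CPM), Gsn (48.4 against 201 to 229 CPM), Ctss (83.9 against 114 to 120.2 CPM) and the 78-nt exon of Mbp (13.5% against 21.8% to 22.3%), and high for the 92-nt exon of Armcx1 (47.1% against 27.2% to 29.1%). P21 S119A library 1 was high for exon 5a of Snap25 (13.1% against 7.21% to 8.07%) and for the 33-nt exon of Mbp (74.0% against 67.8% to 68.7%). Ctss was high in P21 control library 1 (182 against 157 to 161 CPM) and Alas2 in P21 S119A library 2 (24.3 against 17.6 to 18.4 CPM).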

How the results depend on the processing

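The number of genes called, 333, was 503 with DESeq2, 785 without a filter, 921 in libraries numbered 1 alone, 1282 in those numbered 2 alone, 1377 with an age by number term, 782 with all 12 libraries, 814 for transcripts in place of gene sums, and 80 (without P15 S119A library 2) to 531 (without P21 S119A library 1) with a library left out. With no block for library number the count was 0 for genes, in control, in S119A and for transcript shares, and 47 for exons, while the 2 counts of age by genotype differences stayed at 0 without the block. In control the 11 calls were 36 with DESeq2, 236 without a filter and 0 (without P21 control library 2) to 46 with a library left out, and in S119A the 39 calls were about 1.2e+02 with DESeq2, 424 without a filter and 9 (without P15 S119A library 2) to 160. The gene interaction gave 1 call with DESeq2, 26 without a filter and 0 to 8 with a library left out, and the share interaction 0 to 4. The 533 transcript shares were 195 in libraries numbered 1 alone, 52 with diffSpliceDGE and 221 (without P15 S119A library 1) to 732 with a library left out, and the 97 exons 49 (without P21 S119A library 2) to 98. The Snap25 shift of 8.81 points was 6.98 in libraries numbered 1 alone and 10.7 in those numbered 2 alone, where the exact p cannot go below 0.333, and 8.81 with paired exchange (exact p = 0.125). With a library left out it was 7.94 to 10.2 points, with an exact p of 0.0286 to 0.0571. Ttr, at -1.45 in all 8 libraries, was 0.72 in libraries numbered 1 alone. Of 48 named genes past the threshold, 48 kept their sign under every setting and 24 passed under each setting with a library left out. The causes of these differences were not tested.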
